A study of Mus musculus with 3 samples.

Results

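Genes of the Wnt pathway were followed across the cell types of the P7 cerebellum in mice with conditional Eed deletion (EedcKO). The members were chosen by a rule on symbols, set with earlier results of these data known. It took the Wnt ligands, the frizzled receptors (Fzd), the secreted frizzled-related (Sfrp) and Dickkopf (Dkk) inhibitors, Wif1, the co-receptors Lrp5 and Lrp6, the transcription factors Lef1, Tcf7, Tcf7l1 and Tcf7l2, and Axin2. Of the 16181 genes in the count tables, 29 met this rule: 8 Wnt ligands, 9 frizzled receptors, 2 Lrp co-receptors, 5 secreted inhibitors, 4 TCF/LEF factors and Axin2. Three-prime Drop-seq libraries, in which each RNA molecule is counted once by its unique molecular identifier (UMI), were made from the cerebella of 3 mice of the genotype Math1-Cre/Eed fl/fl at postnatal day 7, 1 library per mouse, with no treatment. The Math1 (Atoh1) promoter drives Cre in cerebellar granule neuron progenitors (CGNPs), so Eed, a core subunit of the Polycomb Repressive Complex-2, is deleted in the granule neuron lineage while cells outside it carry floxed, undeleted alleles. All 3 mice had this genotype, and controls with intact Eed were not analysed here. Every comparison is therefore between cell types within the same mice, and none shows an effect of the deletion.

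Wnt proteins are secreted ligands that bind a frizzled receptor, and in the canonical branch an Lrp5 or Lrp6 co-receptor, after which beta-catenin enters the nucleus and acts with TCF/LEF factors on target genes such as Axin2. Sfrp proteins and Wif1 bind Wnt ligands outside the cell, and Dickkopf proteins of the classical type bind the Lrp co-receptors. In the developing cerebellum Wnt signals are known from the rhombic lip and the isthmus, and in the brain vasculature canonical Wnt signalling is required for the blood-brain barrier.

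After filtering, 2373 cells remained (918, 547 and 908 in mice 1, 2 and 3) with median depths of 857 to 1408 UMIs per cell, and no cell barcode was shared between mice. Clustering without the members and without the other pathway genes gave 15 clusters, of which 14 were named as 11 cell types from marker lists. These were 662 proliferating CGNP-like cells, 528 differentiating CGNP/CGN-like cells (CGN, cerebellar granule neuron), 76 myoid-like cells, which expressed skeletal muscle genes, and 939 cells outside the lineage. The last group comprised 290 interneuron-like, 241 interneuron progenitor-like, 119 oligodendrocyte-like, 111 astrocyte-like, 52 endothelial-like, 49 myeloid-like, 47 vascular fibroblast-like and 30 pericyte-like cells, while 168 cells led by Syt4 and Snhg11 stayed unnamed. The marker lists hold the genes named next, so their levels describe the clusters and do not test the names. Atoh1 reached 143 ± 33.1 CPM (the UMIs of a gene over all UMIs of the cell group in a mouse, scaled to 1e+06, mean ± SD, n = 3 mice) in proliferating CGNP-like cells, Dcn 5836 ± 1273 CPM in vascular fibroblast-like cells, Cldn5 2796 ± 1109 CPM in endothelial-like cells and Aqp4 2639 ± 1475 CPM in astrocyte-like cells. The interneuron progenitor-like cluster was led by Neurog1 but also expressed cell cycle genes (Mki67, 785 ± 71.6 CPM), and its name is the least certain. It matched 9 markers of proliferating CGNPs and 6 of interneuron progenitors and was named from its leading genes. The 18 proliferating CGNP markers summed to 11531 ± 1306 CPM there and to 8890 ± 868 CPM in proliferating CGNP-like cells, and the 10 interneuron progenitor markers to 2428 ± 532 and 182 ± 18.3 CPM. Eed itself was at 30.3, 14 and 23.4 CPM in CGNP/CGN-like cells of mice 1, 2 and 3 and at 69.5, 79.2 and 45.3 CPM in cells outside the lineage. The deleted part of Eed is not given in the labels, and 3′ tags of a remaining transcript do not test the deletion.

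The members were lowly detected. Together they accounted for 2319 UMIs in the filtered cells, 604 of them (26.1%) from Sfrp1, and 11 members with at least 50 UMIs are described by cell type. The 18 others had 1 to 40 UMIs. They were the ligands Wnt3 (17 UMIs), Wnt4 (10), Wnt6 (9), Wnt7b (8), Wnt9a (3), Wnt7a (1) and Wnt10a (1), the receptors Fzd1 (35), Fzd7 (30), Fzd9 (20), Fzd10 (17), Fzd4 (4) and Fzd8 (2), the co-receptor Lrp5 (18), the inhibitors Wif1 (19) and Dkk2 (14), and the factors Tcf7l1 (40) and Tcf7 (13). In each library, a gene was listed either at 0 or in at least 3 barcodes, never in 1 or 2. A member listed at 0 in a library may thus have had a few UMIs there before deposition, and this applied to 11 members, all with fewer than 50 UMIs.

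**Figure D1:**
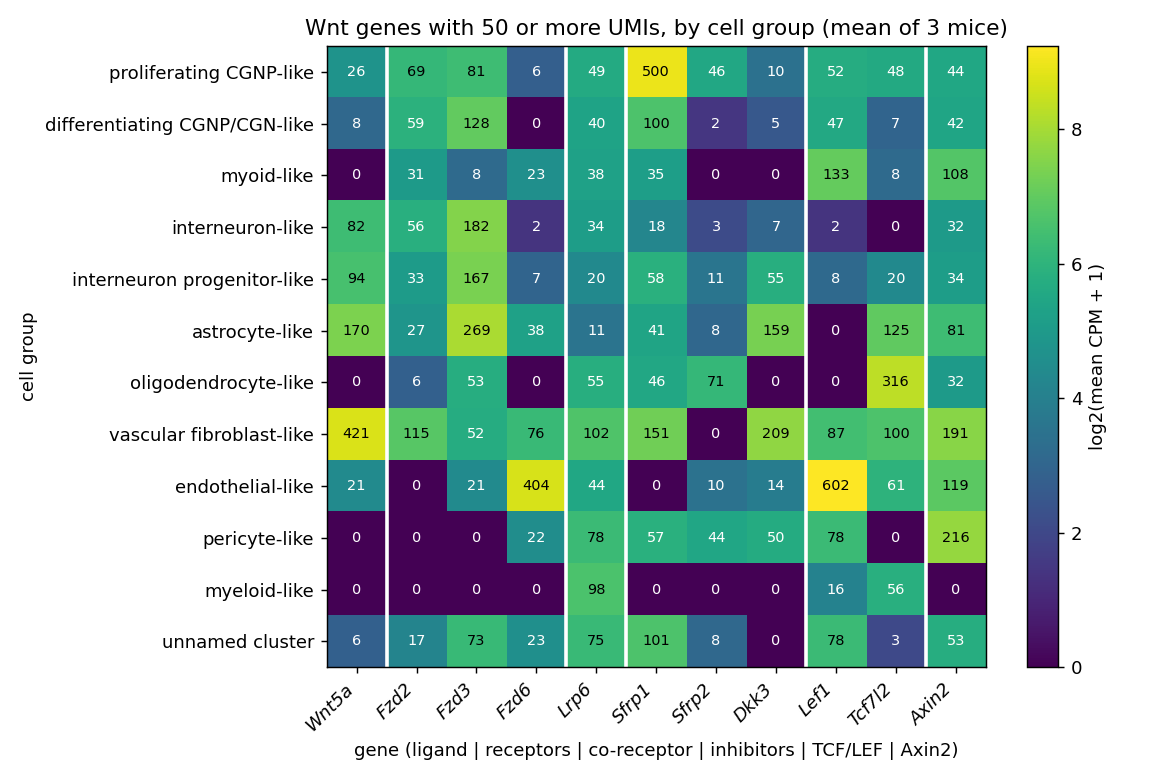
Mean level of the 11 members with at least 50 UMIs in each cell group. Colour gives log2(mean CPM + 1), printed numbers give the mean CPM over 3 mice, and columns are ordered by role. Sfrp1 peaks at 500 CPM in proliferating CGNP-like cells, Wnt5a at 421 CPM in vascular fibroblast-like cells, and Fzd6 and Lef1 at 404 and 602 CPM in endothelial-like cells.

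Canonical Wnt targets are bound by TCF/LEF factors at sites that contain the core CTTTGA. To show where this core stands in the genes that report the pathway, RefSeq windows (GRCm38.p6, 250 bases before to 50 bases after an annotated start) were searched on both strands for 18 members with an entry (23 windows). The core stood in 2 windows, 1 of Fzd1 and 1 of the 4 of Lef1, and 16.0% of all 32817 windows of this length held it. The Axin2 window, shown because Axin2 is the standard readout of the pathway, lies at chr11:108920099-108920398 on the plus strand around the start of the gene. The Lef1 window, shown because it holds the core at 2 places, lies at chr3:131156044-131156343 on the plus strand around an internal start of the gene. Capitals mark the core, which reads TCAAAG on this strand. These matches describe letters only.
Axin2: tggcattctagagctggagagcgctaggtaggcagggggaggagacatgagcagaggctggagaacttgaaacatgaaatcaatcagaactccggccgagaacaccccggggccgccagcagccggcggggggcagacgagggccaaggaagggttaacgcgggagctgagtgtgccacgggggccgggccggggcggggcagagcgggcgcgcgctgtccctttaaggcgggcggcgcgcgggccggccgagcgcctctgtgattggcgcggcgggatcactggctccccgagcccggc
Lef1: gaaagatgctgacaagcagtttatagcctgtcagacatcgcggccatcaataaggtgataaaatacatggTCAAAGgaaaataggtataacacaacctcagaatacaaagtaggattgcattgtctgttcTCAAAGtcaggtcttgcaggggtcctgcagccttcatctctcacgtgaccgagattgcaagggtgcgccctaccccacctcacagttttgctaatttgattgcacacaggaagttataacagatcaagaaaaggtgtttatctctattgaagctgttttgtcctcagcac

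Ligand transcripts lay mostly outside the granule lineage. All 8 Wnt genes together gave 134 UMIs in cells outside the lineage (127.9, 99.0 and 114.1 CPM in mice 1, 2 and 3) and 35 UMIs in the CGNP/CGN-like cells (30.3, 22.5 and 16.7 CPM). The groups did not overlap. Among cell types the summed ligands were highest in vascular fibroblast-like cells, at 811.7, 148.0 and 623.6 CPM, followed by astrocyte-like cells at 225, 237.7 and 258.8 CPM. The fibroblast values straddled those of the astrocytes, because mouse 2, with 11 fibroblast-like cells, was below all 3 astrocyte values. Myeloid-like and pericyte-like cells held no ligand UMI. The limits of 3 counts there are 53.9 and 90.8 CPM, against 61.3 CPM over all cells, so these zeros do not set the types apart.

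Wnt5a, a ligand known mainly from beta-catenin-independent signalling, made up most of this signal (140 of 189 ligand UMIs). The gene lies at chr14:28504750-28527448 on the plus strand (GENCODE M21, GRCm38), and Gm2670 overlaps it on the other strand. Wnt5a reached 527.6, 148.0 and 586.9 CPM in vascular fibroblast-like cells, 112.5, 178.3 and 220.4 CPM in astrocyte-like cells and 89.4, 83.8 and 107.7 CPM in interneuron progenitor-like cells. In interneuron-like cells it stood at 191.7 CPM in mouse 2 and at 33.8 and 19.7 CPM in the others. Proliferating CGNP-like cells had 32.4, 30.6 and 14.7 CPM and differentiating cells 0, 7.85 and 15.5 CPM, and the stages overlapped through mouse 3. Myoid-like and oligodendrocyte-like cells had no Wnt5a UMI. For oligodendrocyte-like cells (154803 UMIs in all) the limit set by 3 counts over the group is 19.4 CPM, at least 2.47-fold below the level in the remaining cells.

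The other ligands were sparse, and their distribution is described as counts, chosen for mention after the values were seen. Of 17 Wnt3 UMIs 7 were in astrocyte-like cells, of 10 Wnt4 UMIs 4 were in vascular fibroblast-like cells, and of 8 Wnt7b UMIs 5 were in oligodendrocyte-like cells. All 9 Wnt6 UMIs fell in myoid-like (6) and vascular fibroblast-like cells (3). Wnt3 and Wnt6 were listed at 0 in mouse 2, Wnt4 in mice 2 and 3, and Wnt7b in mice 1 and 2, so no library comparison can be drawn for them.

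Wls, the carrier that escorts Wnt ligands to the cell surface, was higher in the same fibroblast-like cells that held Wnt5a. It reached 591 ± 233 CPM there against 42.8 ± 1.85 CPM in the rest of the cells (log2 fold change 3.58 ± 0.41 SE, adjusted p = 2.26e-14 by the edgeR quasi-likelihood test). Wls was also higher in pericyte-like (363 ± 49.5 CPM, adjusted p = 0.00462 by edgeR) and myeloid-like cells (279 ± 121 CPM, adjusted p = 0.00513 by edgeR), in which no ligand UMI was found. It was among the genes called in oligodendrocyte-like cells too, which held no Wnt5a UMI, and the direction there is not given here. In interneuron-like cells, where no sum of a mouse reached the limit of the filter on low counts, Wls was called as well.

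**Figure D2:**
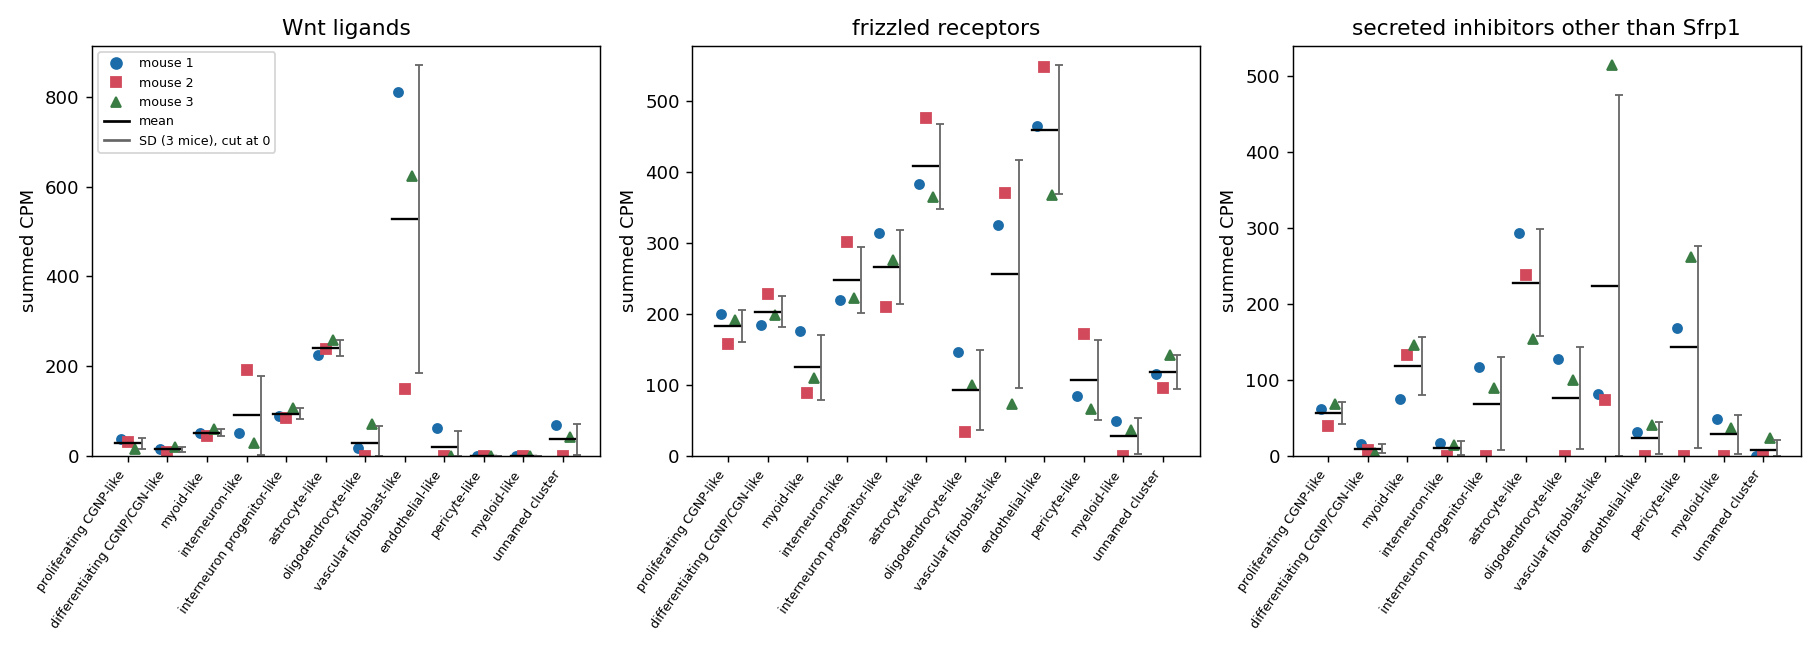
Summed CPM of the 8 Wnt ligands, the 9 frizzled receptors and the 4 secreted inhibitors other than Sfrp1 in each cell group. Points are mice, black bars the mean and grey bars the SD over 3 mice. Ligands peak in vascular fibroblast-like cells (528 CPM on average) and frizzled receptors in endothelial-like (459 CPM) and astrocyte-like cells (407 CPM).

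Frizzled receptors were found in neural and vascular cells alike. In endothelial-like cells Fzd6 gave 29 of the 34 frizzled UMIs, while vascular fibroblast-like cells held 6 UMIs of Fzd2 among 15. Fzd3, a receptor known for axon guidance and planar polarity, was the frizzled gene with the most UMIs (324) and followed the neural cells. It stood at 202.6, 356.6 and 249.2 CPM in astrocyte-like cells, at 169, 219.1 and 157.8 CPM in interneuron-like cells, and at 126.1, 141.3 and 116.3 CPM in differentiating CGNP/CGN-like cells. In proliferating CGNP-like cells it was at 72.9, 78.7 and 91.3 CPM, below the differentiating cells in all 3 mice without overlap. Interneuron-like and interneuron progenitor-like cells (161, 209.5 and 131.6 CPM) overlapped. Myoid-like cells held 2 Fzd3 UMIs, both in mouse 3, and myeloid-like and pericyte-like cells held none. By the limit of 3 counts over the group, the zeros are at least 1.99-fold and 1.17-fold below the remaining cells. The gene models Gm27263 on the same strand and Gm9086 on the other overlap Fzd3 (chr14:65192449-65262463, minus strand).

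Fzd6, a receptor related to Fzd3, was in contrast an endothelial transcript in these mice. Of its 54 UMIs 29 (53.7%) were in the 52 endothelial-like cells, at 340, 547 and 326 CPM. Vascular fibroblast-like cells followed at 81.2, 74.0 and 73.4 CPM, below every endothelial value. The 528 differentiating CGNP/CGN-like cells held no Fzd6 UMI. Fzd6 lies at chr15:39006034-39038188 on the plus strand, with Gm26704 overlapping on the other.

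Fzd2, which can act in both branches of the pathway, was spread over the neural lineages and was also found in vascular fibroblast-like cells. Proliferating CGNP-like cells had 72.9, 61.2 and 73.6 CPM and differentiating cells 42, 62.8 and 73.6 CPM, which overlapped. Interneuron-like cells had 50.7, 82.2 and 34.5 CPM. Vascular fibroblast-like cells had 121.8, 222.0 and 0 CPM, from 6 UMIs, and endothelial-like, pericyte-like and myeloid-like cells had none. The limits of 3 counts there are 39.9, 90.8 and 53.9 CPM. The remaining cells stood at 48.9, 48.2 and 48.6 CPM, so these zeros do not set the types apart. Of the sparse receptors, Fzd7 had 24 of its 30 UMIs in the CGNP/CGN-like cells (21.4, 11.2 and 13.4 CPM) and 4 outside the lineage (2.78, 6.60 and 3.13 CPM). The ratio of its pooled levels was 4.56 (95% counting interval 1.57 to 18.1). Fzd10 had 8 of 17 UMIs in interneuron progenitor-like cells, and Fzd9 8 of 20 in myoid-like cells. These 3 sparse receptors were chosen for mention after their values were seen.

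Lrp6, the co-receptor of the canonical branch, was found at low levels throughout among the 11 members with at least 50 UMIs and the only one of them with a UMI in all 11 named cell types. Its mean level ran from 10.7 ± 11.3 CPM in astrocyte-like cells to 102 ± 58.2 CPM in vascular fibroblast-like cells. Proliferating CGNP-like cells had 64.8, 30.6 and 53.0 CPM and cells outside the lineage 44.5, 39.6 and 45.3 CPM, so the ranges overlapped. Lrp5 gave 18 UMIs, 10 of them in the CGNP/CGN-like cells.

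**Figure D3:**
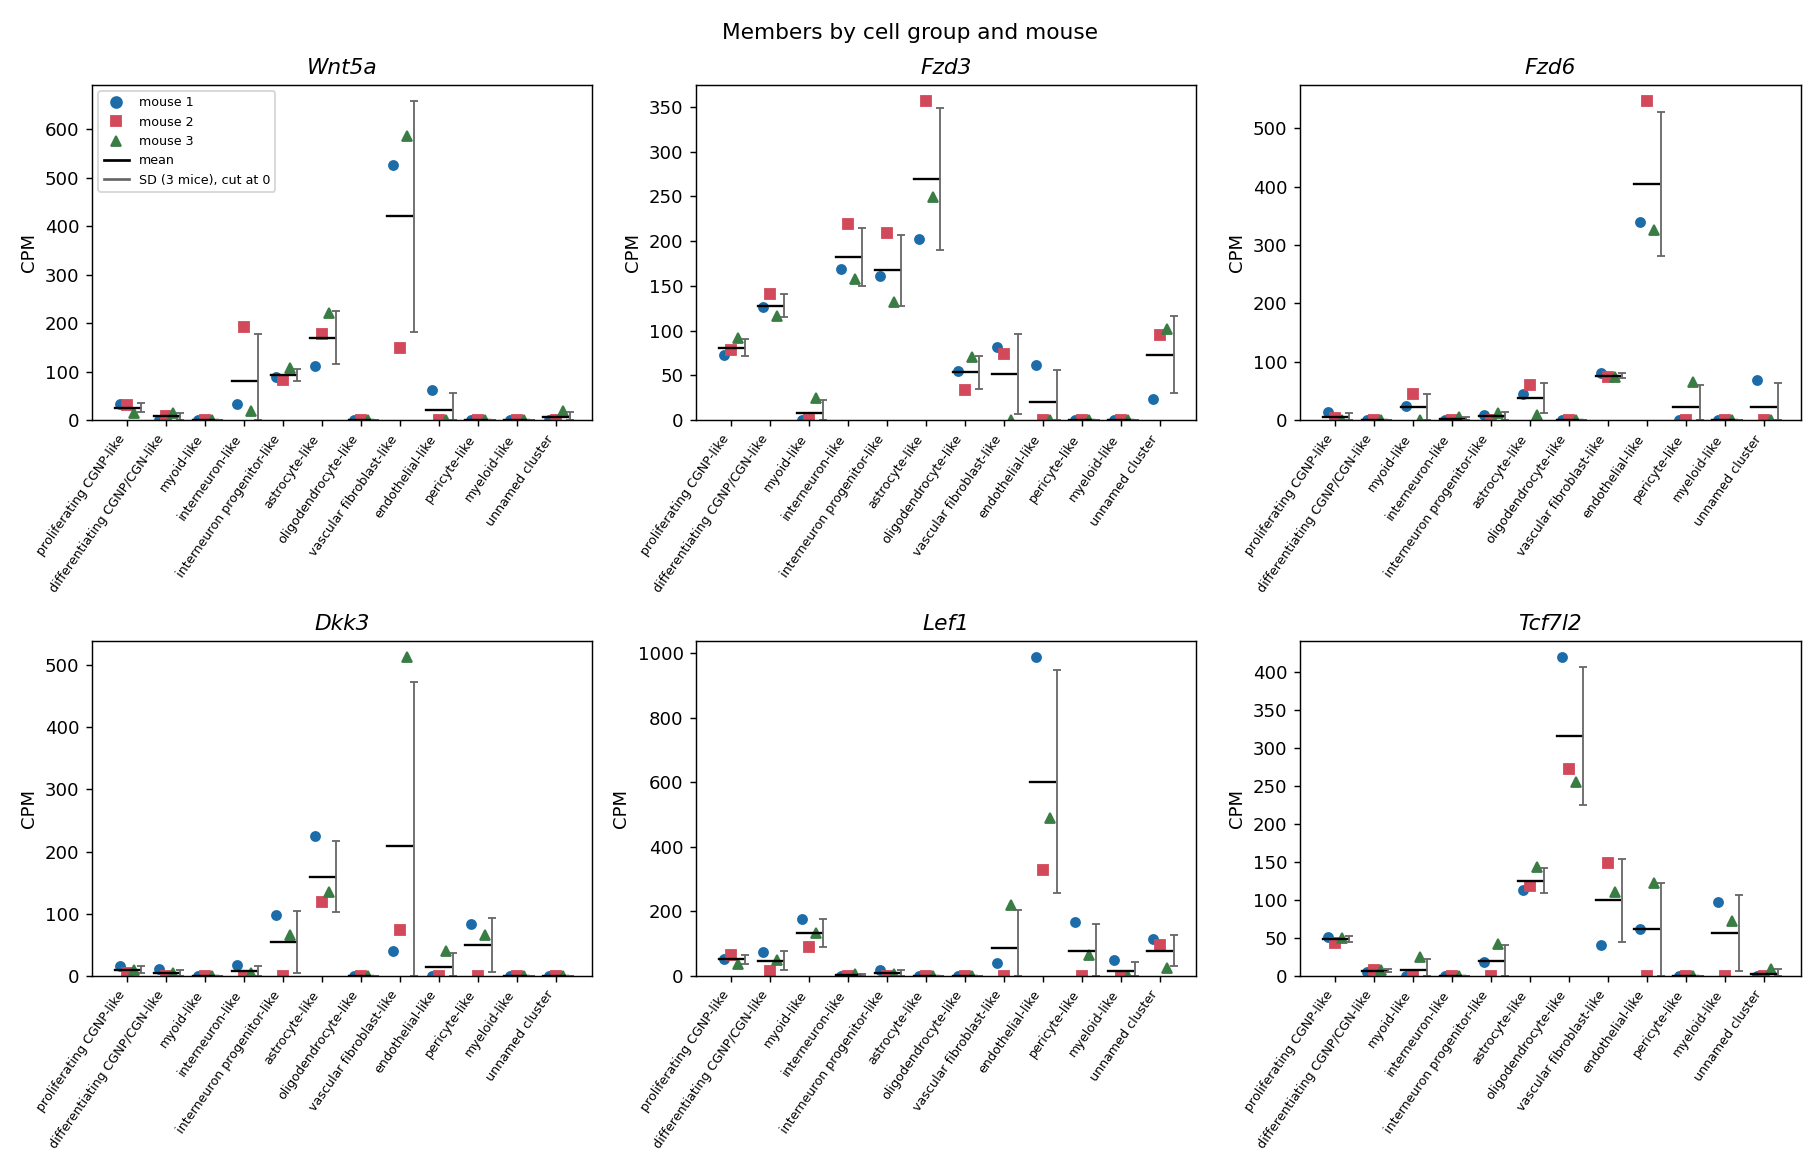
CPM of Wnt5a, Fzd3, Fzd6, Dkk3, Lef1 and Tcf7l2 in each cell group. Points are mice, black bars the mean and grey bars the SD over 3 mice. Fzd6 and Lef1 are highest in endothelial-like cells in each mouse, Tcf7l2 in oligodendrocyte-like cells, and the fibroblast value of Dkk3 is high in mouse 3 only.

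Sfrp1, an inhibitor that binds Wnt ligands, was the member with the most UMIs and lay in the granule progenitors. Since the rule named this gene for its pattern, its levels are given as a description and without a test. Sfrp1 reached 450.6, 467.7 and 580.3 CPM in proliferating CGNP-like cells, which held 471 of its 604 UMIs (78.0%). Vascular fibroblast-like cells were next in order, at 121.8, 148.0 and 183.4 CPM from 10 UMIs, and held no Atoh1 UMI. The differentiating CGNP/CGN-like cells, at 73.6, 62.8 and 162.8 CPM, overlapped the fibroblasts, and both lay below every value of the proliferating cells. The unnamed cells led by Syt4 and Snhg11, at 115.7, 95.3 and 92.0 CPM, overlapped the differentiating cells. The remaining named types had means of 57.8 CPM or less, and the 52 endothelial-like and 49 myeloid-like cells had no Sfrp1 UMI. For the endothelial-like cells, 3 counts over the group correspond to 39.9 CPM, at least 5.03-fold below the level in the other cells. The gene lies at chr8:23411502-23449632 on the plus strand, where no other annotated gene overlaps it.

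Within the granule lineage Sfrp1 was high in all 3 proliferating clusters. The cluster led by Hbb-bs and Islr2, which also expressed Atoh1, stood at 516 ± 137 CPM (mean ± SD, n = 3 mice), the S-phase cluster led by Hist1h1b and Slfn9 at 574 ± 25.1 CPM and the mitotic cluster led by Ube2c and Cenpa at 368 ± 139 CPM. The differentiating cluster led by Mab21l2 and Mfap4 was at 129 ± 106 CPM and the one led by Cntn2 and Adcyap1 at 86.3 ± 45.8 CPM. The S-phase cluster (558.4, 603.3 and 561.5 CPM in mice 1, 2 and 3) lay above the mitotic cluster (342.6, 243.3 and 517.2 CPM) without overlap, while the Atoh1-expressing cluster overlapped both, and the differentiating clusters overlapped each other. Hbb-bs is a haemoglobin gene, and its place among the leading genes of a progenitor cluster was not examined further.

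By cells, 35.1% (95% Clopper-Pearson interval 29.7 to 40.9%), 34.6% (28.2 to 41.5%) and 58.9% (50.8 to 66.6%) of the proliferating CGNP-like cells had an Sfrp1 UMI in mice 1, 2 and 3, at a median depth of 1146.5 UMIs. In differentiating cells the shares were 6.53%, 4.64% and 16.9% at a median depth of 902 UMIs. Among myeloid-like cells, at a median depth of 958 UMIs, the share was 0 of 49 cells, which allows up to 6.12% by the limit of 3 counts over the group. The Clopper-Pearson upper limits for mice 1, 2 and 3 taken singly were 16.1%, 36.9% and 16.8%. With each cell thinned to 500 UMIs the mean shares were 20.4 ± 3.17% in proliferating and 4.24 ± 2.38% in differentiating cells, and the groups still did not overlap. The intervals cover counting error only.

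**Figure D4:**
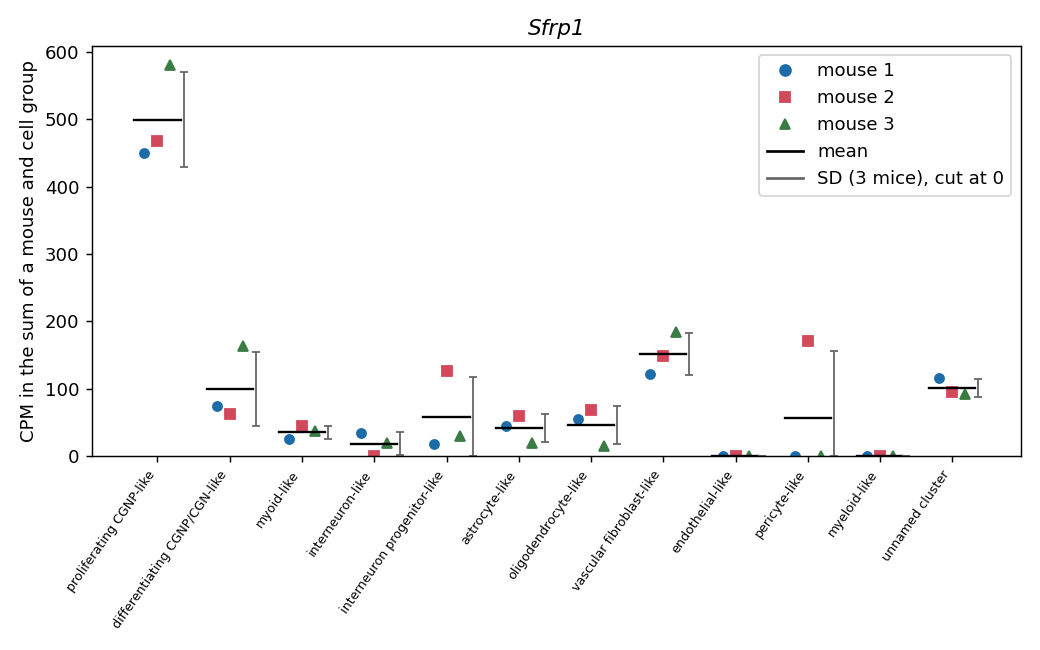
Sfrp1 level in each cell group. Points are mice, black bars the mean and grey bars the SD over 3 mice, in CPM. The 3 values of the proliferating CGNP-like cells lie between 451 and 580 CPM, above all others.

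The other inhibitors divided among cell types. Sfrp2, a relative of Sfrp1, stood at 43.2, 35.0 and 58.9 CPM in proliferating CGNP-like cells and at 5.26, 0 and 0 CPM in differentiating cells (44 UMIs against 1). The groups did not overlap, and the ratio of pooled levels was 27.0 with a 95% counting interval of 4.60 to 1090. Oligodendrocyte-like cells also held Sfrp2, at 127.8, 0 and 85.0 CPM.

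Dkk3, a Dickkopf family member that differs from the others in not binding Lrp co-receptors in most assays, lay in astrocyte-like cells at 225, 118.9 and 134.2 CPM and in vascular fibroblast-like cells at 40.6, 74.0 and 513.5 CPM. The fibroblast level rested on mouse 3, with 14 of 16 UMIs. Interneuron progenitor-like cells had 98.4, 0 and 65.8 CPM, and the myoid-like and oligodendrocyte-like cells none. By the limit of 3 counts over the group, these zeros bound the difference from the remaining cells only at 1.35-fold and 1.45-fold. Wif1 had 10 of its 19 UMIs in myoid-like cells (75.1, 44.3 and 73.1 CPM in mice 1, 2 and 3) and 1 in the CGNP/CGN-like cells, and Dkk2 had 8 of 14 in myoid-like cells (0, 88.5 and 73.1 CPM). Both were chosen for mention after their values were seen.

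Among the nuclear factors, Lef1 was highest in endothelial-like cells at 989.4, 328.3 and 488.7 CPM. Myoid-like cells followed at 175.1, 88.5 and 134.0 CPM, below every endothelial value, and the proliferating (51.3, 65.6 and 38.3 CPM) and differentiating granule cells (73.6, 15.7 and 50.4 CPM) were lower and overlapped each other. Astrocyte-like and oligodendrocyte-like cells had no Lef1 UMI, at least 3.26-fold and 3.03-fold below the level in the other cells by the limit of 3 counts over the group. Lef1 (chr3:131110471-131224356, plus strand) is overlapped by Gm42449 on its own strand and Gm43352 on the other.

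Tcf7l2 showed the reverse order in glia. It was highest in oligodendrocyte-like cells at 420.0, 271.5 and 255.0 CPM, followed without overlap by astrocyte-like cells at 112.5, 118.9 and 143.8 CPM. The 290 interneuron-like cells had no Tcf7l2 UMI, at least 5.33-fold below the level in the other cells by the limit of 3 counts over the group. Tcf7l2 lies at chr19:55741820-55933654 on the plus strand and contains the gene model Ppnr. Tcf7l1, with 40 UMIs, had 13 in astrocyte-like and 8 in vascular fibroblast-like cells and 5 in the CGNP/CGN-like cells.

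Axin2, a negative feedback regulator and target of the canonical branch, was detected in every named type except myeloid-like cells. It was highest in pericyte-like (83.9, 170.9 and 392.7 CPM) and vascular fibroblast-like cells (243.5, 74.0 and 256.8 CPM), which overlapped. Endothelial-like cells had 154.6, 0 and 203.6 CPM and myoid-like cells 150.1, 88.5 and 85.2 CPM. The proliferating (56.7, 21.9 and 53.0 CPM) and differentiating granule cells (31.5, 31.4 and 62.0 CPM) overlapped. Gm11670 overlaps Axin2 (chr11:108920349-108950783, plus strand) on the other strand.

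To ask which members separate the granule lineage from other cells, UMI sums per mouse were compared between CGNP/CGN-like cells and cells outside the lineage. Wnt5a, Tcf7l2 and Fzd6 were lower in the granule lineage, and Fzd2 was higher by a call that was lost under 7 of 13 alternatives. Of the 28 members other than Sfrp1, 9 passed the filter on low counts. Of these 1 was called higher, where 3.89% of all 7617 genes tested were, and 3 lower, where 8.70% were. Fzd6, 1 of the 3 lower, passed the filter only through the cells outside the lineage. The median log2 fold change of the 9 members was -0.41 against 0.02 over all genes.

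Wnt5a was at 21.4, 22.5 and 15.1 CPM in the lineage and at 89.0, 92.4 and 95.4 CPM outside it, a log2 fold change of -2.25 ± 0.31 (adjusted p = 5.99e-05, edgeR quasi-likelihood test with Benjamini-Hochberg adjustment), lower in 3 of 3 mice. Tcf7l2 was at 35.7, 30.9 and 31.8 CPM against 97.3, 79.2 and 75.0 CPM (-1.34 ± 0.29, adjusted p = 0.00336 by edgeR). This call was lost without mouse 1 (-1.28, adjusted p = 0.0742) and with at least 1000 UMIs per cell (adjusted p = 0.0902, over 13 alternatives 4e-04 to 0.0902). Fzd6 was at 8.92, 2.81 and 0 CPM against 44.5, 79.2 and 23.4 CPM (-3.32 ± 0.70, adjusted p = 0.00314 by edgeR), and its call was lost without mouse 2 (-2.83, adjusted p = 0.0639, over 12 alternatives 2.49e-06 to 0.0639). With 6 UMIs in the lineage against 43, Fzd6 entered the test only through the cells outside it. Fzd2 was at 62.4, 61.8 and 73.6 CPM against 36.1, 46.2 and 25 CPM (1.02 ± 0.32, adjusted p = 0.0481 by edgeR). It lost the call without mouse 1, 2 or 3 in turn (log2 fold change 1.14, 1.2 and 0.62, adjusted p = 0.18, 0.0675 and 0.437) and with DESeq2 (0.99, adjusted p = 0.187), and over 13 alternatives its adjusted p ran from 0.0145 to 0.437. Without the 241 interneuron progenitor-like cells, an alternative chosen after the data were seen, these 4 members were called in the same directions, Wnt5a at -2.23, Tcf7l2 at -1.66, Fzd6 at -3.64 and Fzd2 at 1.24 (adjusted p = 6.25e-05, 0.000492, 0.000595 and 0.0365 by edgeR). The p-values come from a fit that took the sums as separate samples, although each of these 3 mice gave a sum to both groups.

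Axin2 (43.4 ± 16.3 against 58.0 ± 6.77 CPM, adjusted p = 0.505 by edgeR), Lef1 (50.03 ± 7.92 against 59.4 ± 40.2 CPM, adjusted p = 0.772) and Lrp6 (46.0 ± 19.6 against 43.1 ± 3.10 CPM, adjusted p = 0.899) did not pass the test. Dkk3 did not pass the filter, although its 3 lineage values (14.3, 2.81 and 6.69 CPM) lay below the 3 outside it (66.7, 19.8 and 65.7 CPM). Without the filter it was called lower (-2.63 ± 0.48, adjusted p = 1.36e-06 by edgeR), as were Tcf7l1 (adjusted p = 0.000417) and Fzd1 (adjusted p = 0.0427), making 6 members in all. The share of all genes called in fits without the filter is not given here, so calls from such fits cannot be set against it.

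**Figure D5:**
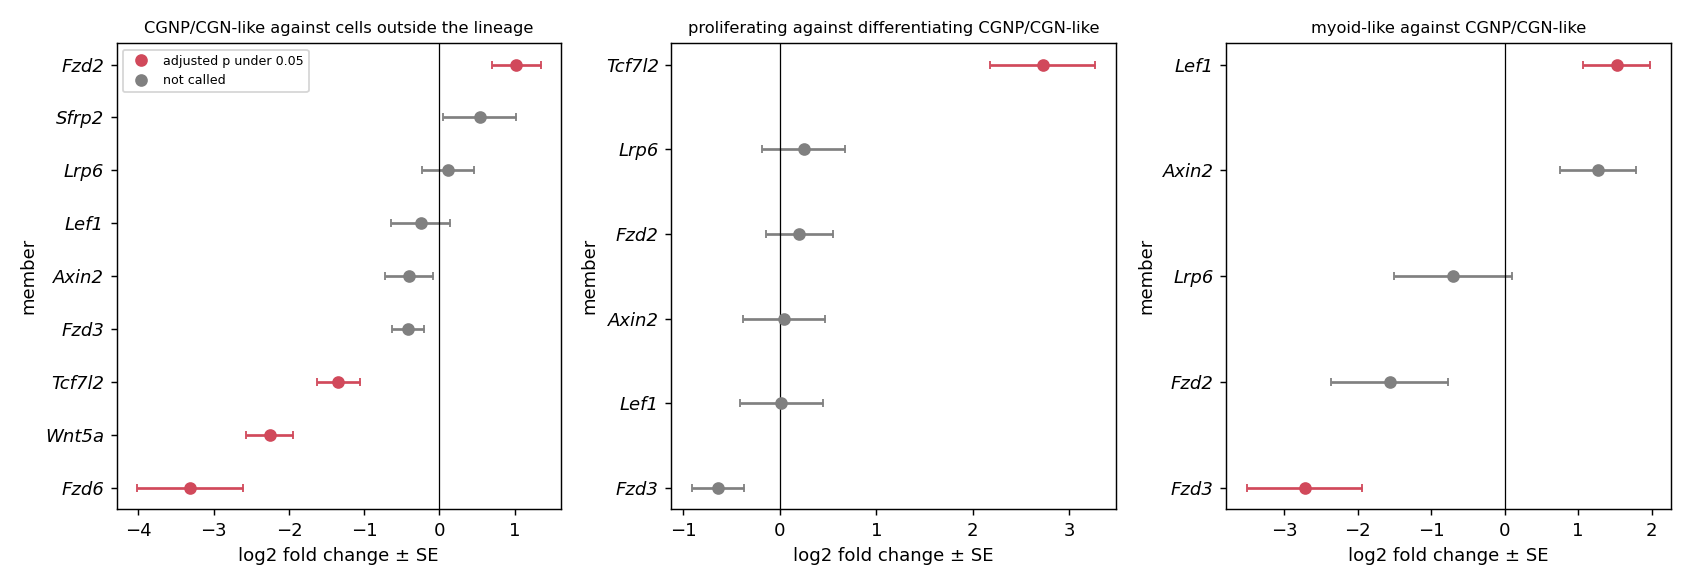
Log2 fold changes with SE of the tested members other than Sfrp1 comparing the CGNP/CGN-like cells and those outside the lineage, comparing proliferating and differentiating granule cells, and comparing myoid-like and CGNP/CGN-like cells. Red points have an adjusted p under 0.05 by edgeR. Wnt5a at -2.25 and Tcf7l2 at 2.72 are the members with the lowest adjusted p in the first and second panel.

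To follow the members through granule neuron differentiation, proliferating and differentiating cells were compared. Tcf7l2 alone was called, with lower levels in differentiating cells. It was at 51.3, 43.7 and 50.1 CPM in proliferating cells and at 5.26, 7.85 and 7.75 CPM in differentiating cells, a log2 fold change of 2.72 ± 0.55 (adjusted p = 0.000792 by edgeR, higher in 3 of 3 mice). It held under the 10 alternatives that gave a value, and without mouse 3 or with at least 1000 UMIs per cell it no longer passed the filter on low counts. With 4 UMIs in differentiating cells against 46, Tcf7l2 entered the test only through the proliferating cells, where it is high. The ratio of its pooled levels was 7.05 (95% counting interval 2.57 to 27.0). Within the lineage the clusters in S phase and mitosis had 54.2 ± 11.4 and 56.8 ± 28.9 CPM, the Atoh1-expressing cluster 30.6 ± 11.4 CPM, the cluster led by Mab21l2 20.9 ± 5.84 CPM and the cluster led by Cntn2 none. Tcf7l2 was most abundant in glia, so marker sums were set beside it. The 11 oligodendrocyte markers summed to 186 to 227 CPM in proliferating and 273 to 360 CPM in differentiating cells, and the 13 astrocyte markers to 267 to 477 CPM and 204 to 345 CPM. Their part in the Tcf7l2 levels was not tested.

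Of the 28 members 6 were tested between these stages, with 1 called higher, where 13.8% of 5057 genes were, and 0 lower, where 14.6% were. At an unadjusted p under 0.05 the lower count was 1, Fzd3 (-0.64 ± 0.27, adjusted p = 0.0827 by edgeR). With mouse as a block Fzd3 was called (-0.63, adjusted p = 0.0485), and DESeq2 called 0 lower. Axin2 (43.8 ± 19.1 against 41.6 ± 17.6 CPM, adjusted p = 0.954) and Lef1 (51.7 ± 13.6 against 46.6 ± 29.1 CPM, adjusted p = 0.983) were within the spread between mice. Sfrp2 did not pass the filter. Without the filter it was called higher in proliferating cells (adjusted p = 7.41e-06 by edgeR). The median log2 fold change of the 6 members was 0.12 against 0.01 over all genes.

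To ask how the myoid-like cells differed from granule cells in Wnt components, both were compared in the same mice. Lef1 was higher in the myoid-like cells and Fzd3 lower. Lef1 was at 175.1, 88.5 and 134.0 CPM against 58.8, 47.7 and 43.5 CPM, a log2 fold change of 1.52 ± 0.46 (adjusted p = 0.0153 by edgeR, higher in 3 of 3 mice). Without mouse 1 or mouse 3, or with no filter on low counts, the call was lost (adjusted p = 0.107, 0.196 and 0.111, over all alternatives 0.00307 to 0.196). Endothelial-like cells were the type with most Lef1, and of the 11 endothelial markers 8 had no UMI in myoid-like cells, Cldn5, Pecam1, Flt1, Cdh5 and Kdr among them, while Itm2a gave 105 of the 110 UMIs of the list. The 9 vascular fibroblast markers summed to 4274 to 6706 CPM in myoid-like cells against 261 to 301 CPM in CGNP/CGN-like cells, with 4 of them, Dcn included, at 0 UMIs. The 10 pericyte markers summed to 354 to 726 CPM against 36.5 to 62.4 CPM, with 7 at 0 UMIs, Rgs5 included. The part of these genes in the Lef1 and Axin2 levels was not tested. Fzd3 had 2 UMIs in myoid-like cells against 148 (0, 0 and 24.4 CPM against 90.9, 101.1 and 102.1 CPM, adjusted p = 0.0113 by edgeR). Its pooled level was 7.07-fold higher in the CGNP/CGN-like cells (95% counting interval 1.92 to 58.9), and the call was lost without mouse 1, 2 or 3 in turn (adjusted p = 0.0921, 0.065 and 0.0558). Fzd3 entered the test only through the CGNP/CGN-like cells, where it is high.

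Axin2 was also higher in each mouse in myoid-like cells, at 150.1, 88.5 and 85.2 CPM against 48.1, 25.3 and 56.9 CPM, but missed the threshold (1.27 ± 0.52, adjusted p = 0.09 by edgeR). With no upper limit on UMIs per cell it was called (1.41, adjusted p = 0.0287). Of the 28 members 5 were tested, with 1 called higher, where 8.01% of 4542 genes were, and 1 lower, where 11.9% were. The median log2 fold change of the 5 was -0.70 against -0.11 over all genes. The inhibitors Wif1 and Dkk2 and the receptor Fzd9 were under the filter. Their counts in myoid-like against CGNP/CGN-like cells were 10 against 1, 8 against 1 and 8 against 1, with ratios of pooled levels of 105 (95% counting interval 14.9 to 4540), 83.7 (11.2 to 3716) and 83.7 (11.2 to 3716). All 3 were chosen after their values were seen, and the intervals cover counting error over pooled mice only, so they test nothing. Without the filter these 3 and Wnt6 (6 UMIs against 0) were called higher, in place of Lef1, but Wnt6 and Fzd9 are listed at 0 in mouse 2. The share of all genes called higher in that fit is not given here.

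Each cell type outside the lineage was then compared with all other cells. Fzd6 and Lef1 were called higher in endothelial-like cells, Tcf7l2 in oligodendrocyte-like and astrocyte-like cells, and Wnt5a and Dkk3 in astrocyte-like and vascular fibroblast-like cells. Fzd6 and Dkk3 entered these tests only through the types where they are high, and the fibroblast call of Dkk3 rested on mouse 3. In endothelial-like cells 2 of 8 tested members were called higher, where 8.83% of all genes tested were. These were Fzd6 (log2 fold change 5.33 ± 0.51, adjusted p = 3.43e-09 by edgeR) and Lef1 (3.82 ± 0.40, adjusted p = 1.49e-08 by edgeR). Both calls held under all 12 alternatives. Fzd6 entered this test only through the endothelial-like cells, where it is high (404 ± 124 against 8.90 ± 5.01 CPM), while Lef1 passed the filter in both groups. Erythroid markers (5, of which 1 was at 0) summed to 123.7, 48255 and 285.1 CPM in the endothelial-like cells of mice 1, 2 and 3, and pericyte markers (10, of which 3 were at 0) to 1144, 218.8 and 2770 CPM. Their part in the Fzd6 and Lef1 levels was not tested.

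In astrocyte-like cells 5 of 9 tested members were called higher, where 9.27% of genes were. They spanned a ligand, a receptor, an inhibitor and 2 of the 4 TCF/LEF factors, namely Wnt5a (2.36 ± 0.42, adjusted p = 6.84e-05 by edgeR), Fzd3 (1.46 ± 0.34, adjusted p = 0.00213), Dkk3 (3.21 ± 0.51, adjusted p = 1.19e-05), Tcf7l1 (3.19 ± 0.55, adjusted p = 4.18e-05) and Tcf7l2 (1.68 ± 0.45, adjusted p = 0.00786). Each was higher in 3 of 3 mice. Dkk3 and Tcf7l1 entered the test only through the astrocyte-like cells. The 7 ependymal markers were all detected in this cluster, at 3488, 6597 and 86.3 CPM in mice 1, 2 and 3 against 14 to 19.6 CPM in CGNP/CGN-like cells, and their part in these levels was not tested. Without mouse 3, which gave 58 of the 111 cells, Wnt5a, Fzd3 and Tcf7l2 lost the call (adjusted p = 0.132, 0.103 and 0.352), while Dkk3 (adjusted p = 2.69e-05) and Tcf7l1 (adjusted p = 0.000429) kept it. With no filter on low counts Fzd3 and Tcf7l2 also lost the call (adjusted p = 0.0657 and 0.0619), as did Tcf7l2 with at least 1000 UMIs per cell (adjusted p = 0.0522).

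In vascular fibroblast-like cells 3 of 9 tested members were called higher, where 6.83% of genes were. These were Wnt5a (3.48 ± 0.45, adjusted p = 1.57e-11 by edgeR), Dkk3 (3.30 ± 0.58, adjusted p = 1.36e-06) and Axin2 (1.92 ± 0.56, adjusted p = 0.00772). Dkk3 entered the test only through the fibroblast-like cells, and its call rested on mouse 3 and without it fell to 0.998 (adjusted p = 0.677). Axin2 lost the call without mouse 1, 2 or 3 in turn (adjusted p = 0.151, 0.061 and 0.141) and with no filter on low counts (adjusted p = 0.0554). Of 13 astrocyte markers 9 were detected in these cells, summing to 1745, 2220 and 3045 CPM in mice 1, 2 and 3, while Aqp4 gave 1 UMI, and their part in the Wnt5a and Dkk3 levels was not tested. The 10 pericyte markers (3 at 0 UMIs) summed to 1826, 2812 and 2678 CPM there. The 11 endothelial markers (7 at 0 UMIs) summed to 1664, 1332 and 1357 CPM. The part of these 2 lists in the Axin2 level was not tested.

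Oligodendrocyte-like cells had 1 of 7 members called higher, where 5.68% of genes were. It was Tcf7l2 (315.5 ± 90.9 against 33.1 ± 3.46 CPM, 3.16 ± 0.34, adjusted p = 7.79e-07 by edgeR), which held under all 12 alternatives. Interneuron progenitor-like cells had 1 of 7, where 4.61% were, namely Wnt5a (93.6 ± 12.5 against 39.2 ± 1.46 CPM, 1.29 ± 0.37, adjusted p = 0.0262 by edgeR). That call was lost under 6 of 12 alternatives, namely without mouse 1, 2 or 3 in turn (adjusted p = 0.195, 0.0577 and 0.326), with no filter on low counts (0.0607), at resolution 1.2 (0.111) and with at least 1000 UMIs per cell (0.15), at log2 fold changes of 1.14 to 1.35. The 13 astrocyte markers (5 at 0 UMIs) summed to 1064, 838 and 1244 CPM in interneuron progenitor-like cells. In CGNP/CGN-like cells they summed to 374, 244 and 420 CPM, and their part in the Wnt5a level was not tested. In the other 3 types edgeR called 0 of 7 members higher, where 5.14% (interneuron-like), 6.64% (myeloid-like) and 3.42% (pericyte-like) of genes were. At an unadjusted p under 0.05 the counts were 1, 0 and 1, and DESeq2 called Axin2 in pericyte-like cells (1.93, adjusted p = 0.0205).

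In the other direction, members were called lower mainly where they were at or near 0 UMIs, and each of these passed the filter on low counts through the rest of the cells. Lef1 was called lower in interneuron-like (1 UMI), interneuron progenitor-like (3), astrocyte-like (0) and oligodendrocyte-like cells (0), Tcf7l2 in interneuron-like cells (0), Wnt5a in oligodendrocyte-like cells (0), and Fzd3 in myeloid-like and pericyte-like cells (0 in both). The counts were 2 of 7 in interneuron-like cells, where 9.71% of all genes tested were lower, 2 of 7 in oligodendrocyte-like cells (5.77%), and 1 each in interneuron progenitor-like (5.65%), astrocyte-like (7.23%), myeloid-like (12.3%) and pericyte-like cells (7.20%). In vascular fibroblast-like (10.8%) and endothelial-like cells (11.8%) edgeR called 0 lower, with 0 and 2 at an unadjusted p under 0.05, and DESeq2 called 0. DESeq2 also called 0 lower in interneuron progenitor-like and pericyte-like cells, and with mouse as a block Fzd3 in pericyte-like cells was not called.

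The rest of the pathway, 62 measured genes of a list of 68 with secretion factors, destruction complex, nuclear cofactors and targets, was compared in the same way. Between CGNP/CGN-like cells and cells outside the lineage 30 were tested, with 3 (10%) higher and 6 (20%) lower, where 3.89% and 8.70% of all genes tested were. Draxin, a secreted guidance protein that also antagonises Wnt signalling, was at 252 ± 57.8 against 34.5 ± 18.7 CPM (2.66 ± 0.30, adjusted p = 6.4e-06 by edgeR). Nkd1, a feedback inhibitor acting on Dishevelled, was at 146 ± 32.1 against 47.5 ± 25.3 CPM (1.48 ± 0.29, adjusted p = 0.00179), and the corepressor Tle1 at 61.2 ± 10.2 against 23.3 ± 3.01 CPM (1.31 ± 0.34, adjusted p = 0.0139). The lowest adjusted p among those lower were those of Wls (22.1 ± 6.83 against 109 ± 35.2 CPM, adjusted p = 0.000273), Bmp4 (2.90 ± 2.70 against 57.4 ± 36 CPM, adjusted p = 0.000432) and Myc (11.6 ± 2.14 against 42.6 ± 11 CPM, adjusted p = 0.00364). Bmp4 was found mostly in oligodendrocyte-like cells, with 50 of 57 UMIs. Bmp4, Myc and Tspan12 entered the test only through the cells outside the lineage, where they are high. With mouse as a block Celsr2 and Porcn were also called, for 8 lower.

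Between proliferating and differentiating cells, of 17 pathway genes tested 2 (11.8%) were higher in proliferating cells, near the 13.8% of all genes, and 7 (41.2%) were lower, where 14.6% of all genes were. The 2 higher were Draxin (0.98 ± 0.26, adjusted p = 0.00756 by edgeR) and Ctnnb1, which encodes beta-catenin (144 ± 11.5 against 84.8 ± 15.1 CPM, 0.79 ± 0.27, adjusted p = 0.0319). The 7 lower were led by Apc2 (17.6 ± 12.4 against 188 ± 54.8 CPM, -3.46 ± 0.40, adjusted p = 2.04e-06), which entered the test only through the differentiating cells, Apc (277 ± 25 against 645 ± 69.7 CPM, -1.22 ± 0.20, adjusted p = 9.64e-05) and the planar polarity cadherin Celsr2 (66.3 ± 12 against 173 ± 41.7 CPM, -1.37 ± 0.28, adjusted p = 0.000907). Gsk3b (236 ± 42.2 against 415 ± 46.5 CPM, adjusted p = 0.00677), Ctnnbip1, Csnk1e and Pygo1 were the other 4, and with mouse as a block Amer1 and Csnk1a1 made 9. Between myoid-like and CGNP/CGN-like cells 15 were tested, with 0 higher and 4 (26.7%) lower, where 8.01% and 11.9% of all genes were, and 1 was higher at an unadjusted p under 0.05. The 4 were Draxin (adjusted p = 9.42e-05), Apc (adjusted p = 0.00133), Celsr2 (adjusted p = 0.00262) and Apc2 (adjusted p = 0.014), all by edgeR. Celsr2 and Apc2 had 1 UMI each in the myoid-like cells and entered the test only through the CGNP/CGN-like cells. With mouse as a block 1 pathway gene, Csnk1a1, was called higher.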

How the data were processed

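Raw UMI counts per gene and cell were deposited by the authors for 3 Drop-seq libraries. Alignment used STAR to mm10 per the submitters' processing notes, with versions not given in the sources used here. Cells with at least 500 UMIs, 200 genes and at most 10% mitochondrial UMIs were kept. Their UMIs and their genes could each be at most 4 SD above the median of the library. No doublet caller was run. The data were normalised with sctransform 0.4.2 and clustered with Seurat 5.3.0 (15 components, resolution 0.8), with 91 members and pathway genes held out. Clusters were named from at least 3 markers, by a rule set after the clusters were seen. Counts were summed per mouse and cell type and tested with edgeR 4.0.16 (TMM, filterByExpr, quasi-likelihood, Benjamini-Hochberg over all genes, threshold 0.05), on the sums as separate samples. SE is the absolute log2 fold change over the square root of F. DESeq2 1.42.0 was an alternative, and tests were tried on simulated data. Sums compared within a mouse share the animal, which pairs them, and their deviations correlated (0.248, 0.188 and 0.368 in mice 1, 2 and 3 for the lineage comparison). Members with at least 50 UMIs and members called were named. The members and lists were chosen with earlier results of these data known. Replicates are separate mice. Some marker genes are not reported here.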

Additional observations from a re-analysis of the deposited data

Results flagged for a closer look

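Barcodes that failed the cell filters were outside every comparison, and the members were detected there. The 1108 such barcodes, with a median of 358 UMIs, held Sfrp1 at 155.3 CPM (95% counting interval 125.6 to 189.8 CPM) against 196 CPM in the filtered cells, above the 4.90 CPM that 3 counts would give. All members together were at 756.7 CPM (689.4 to 828.9 CPM) there and at 752.6 CPM in the filtered cells. The interval of all members together holds the level in the cells, and that of Sfrp1 lies below it.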

How the results depend on the processing

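Counts of cells are small in several types (30 to 119), and 3 mice per group limit precision. Genes seen in fewer than 3 barcodes of a library appear to be listed at 0 there. Of 89 counts or shares recomputed, 64 stayed within 1.5 times or 1 SD. For the lineage comparison, the 1 higher member became 0 with DESeq2, at resolution 0.4, with at least 1000 UMIs per cell and with nothing held out, and the 3 lower became 6 with no filter on low counts and 1 with at least 1000 UMIs. For proliferating against differentiating cells, the 1 higher became 2 with no filter and 0 with at least 1000 UMIs, and the 0 lower became 1 with the replicate block. The block kept the 19 calls named with an adjusted p, while Fzd3 in pericyte-like cells was no longer called lower. For myoid-like cells, the 1 higher became 4 with no filter and 3 with no upper limit on UMIs. Leaving out 1 mouse gave 0 to 0 higher and 2 to 5 lower in the lineage comparison, 0 to 2 higher and 0 to 0 lower between stages, 0 to 1 higher and 0 to 0 lower in myoid-like cells, and 6 to 15 calls (12 with all mice) over the types outside the lineage. The share of cells with an Sfrp1 UMI, thinned to 500 UMIs, fell from 42.9% to 20.4% in proliferating CGNP-like cells and from 3.91% to 1.60% outside the lineage. Testing only genes above 0 in all 3 libraries, chosen after seeing the data, changed no count, nor did leaving out the interneuron progenitor-like cells in the lineage comparison. With at least 1000 UMIs, myeloid-like and pericyte-like cells gave no value. The cause of these changes was not tested, other than that the filter and the cell minimum change how many genes and cells enter.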
